A study of Mus musculus with 11 samples.

Results

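The IL-22 receptor, STAT3 and Fut2 axis was followed through 6 mouse genes in sorted small-intestinal epithelial cells: Il22ra1, Il10rb, Stat3, Socs3, Fut2 and Il18. They were chosen by gene symbol, all 6 were found among the 11366 genes of the expression table, and all 6 passed the filter on low values. The 11 RNA-seq libraries came from wild-type mice. SFB mice ate standard chow and were colonized with SFB, taken here to be segmented filamentous bacteria (n = 4), NFF mice ate a diet low in fermentable fiber with no colonization given in their labels (n = 4), and Control mice ate standard chow and were untreated (n = 3, replicates 2, 4 and 5). In every group live cells with EpCAM and without CD45, CD31 and CD44 were sorted, which selects epithelium, removes leukocytes and endothelium, and leaves out cells with CD44, a molecule enriched on crypt cells. The labels give neither the age of the mice nor whether each library came from a separate animal, so the p-values cover variation among these 11 samples only, part of which may be technical. SFB and NFF differ in both diet and colonization, so these cannot be told apart in a comparison between them.

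IL-22 is made by lymphocytes of the lamina propria and acts on epithelium. It binds a receptor of 2 chains, IL-22RA1, which is restricted mainly to epithelial and stromal cells and gives the receptor its specificity, and IL-10RB, a chain shared with the receptors for IL-10, IL-26 and type III interferons. Receptor-bound JAK kinases phosphorylate STAT3, which enters the nucleus and induces genes of host defence together with Socs3, an inhibitor that feeds back on the same receptors. Fut2 encodes a fucosyltransferase that caps glycans of the gut surface with fucose, and in mice its induction in small-intestinal epithelium by IL-22 and by attached bacteria is well known. Il18 encodes a cytokine held as a precursor in epithelial cells, cut by inflammasome caspases, and induced by IL-22 in mouse epithelium.

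Values are RPKM, reads scaled to the length of the gene and the size of the library by the authors. Differences and their standard errors are of log2(RPKM + 1), which understates the change of genes near 1 RPKM, and adjusted p-values are from limma with Benjamini-Hochberg adjustment over 10482 genes, with calls at an adjusted p under 0.05. The exact permutation tests were two-sided, and 0.029 was the smallest p that the 4 and 3 or 4 and 4 libraries allow.

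The promoter of Socs3 is shown because it holds the motif of the pathway, the inverted repeat that STAT proteins bind. The sequence is from RefSeq on GRCm38.p6, chr11:117969452-117969616 on the minus strand, written 5′ to 3′. It overlaps no annotated exon: it lies upstream of the exons of the protein-coding transcript and within an intron of a longer non-coding transcript of the gene. Capitals mark the match to TTCNNNGAA, which lies 154 bases before the RefSeq start.
Socs3: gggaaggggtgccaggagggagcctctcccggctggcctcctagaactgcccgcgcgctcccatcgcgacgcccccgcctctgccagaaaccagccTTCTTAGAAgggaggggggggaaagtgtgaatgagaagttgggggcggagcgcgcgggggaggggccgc
The motif reads the same on both strands, so a single search covered both. Windows of 300 bases, from 250 before to 50 after the start, were searched, and 2726 of 32851 promoters held a match (8.30%). Promoters of 4 of the 6 genes were in the table used, those of Il22ra1, Il18, Stat3 and Socs3, and only that of Socs3 held a match. A match describes the letters and is not a measurement of binding.

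Across the axis, SFB epithelium had less Il10rb than NFF epithelium, and this was the only call among the 6 genes in any of the 3 comparisons. Stat3 and Socs3 were placed highest in SFB, with no overlap between SFB and Control for Stat3 or between SFB and NFF for Socs3, but neither passed the adjusted threshold. Il22ra1, Fut2 and Il18 had group ranges that overlapped in all 3 comparisons.

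**Figure D1:**
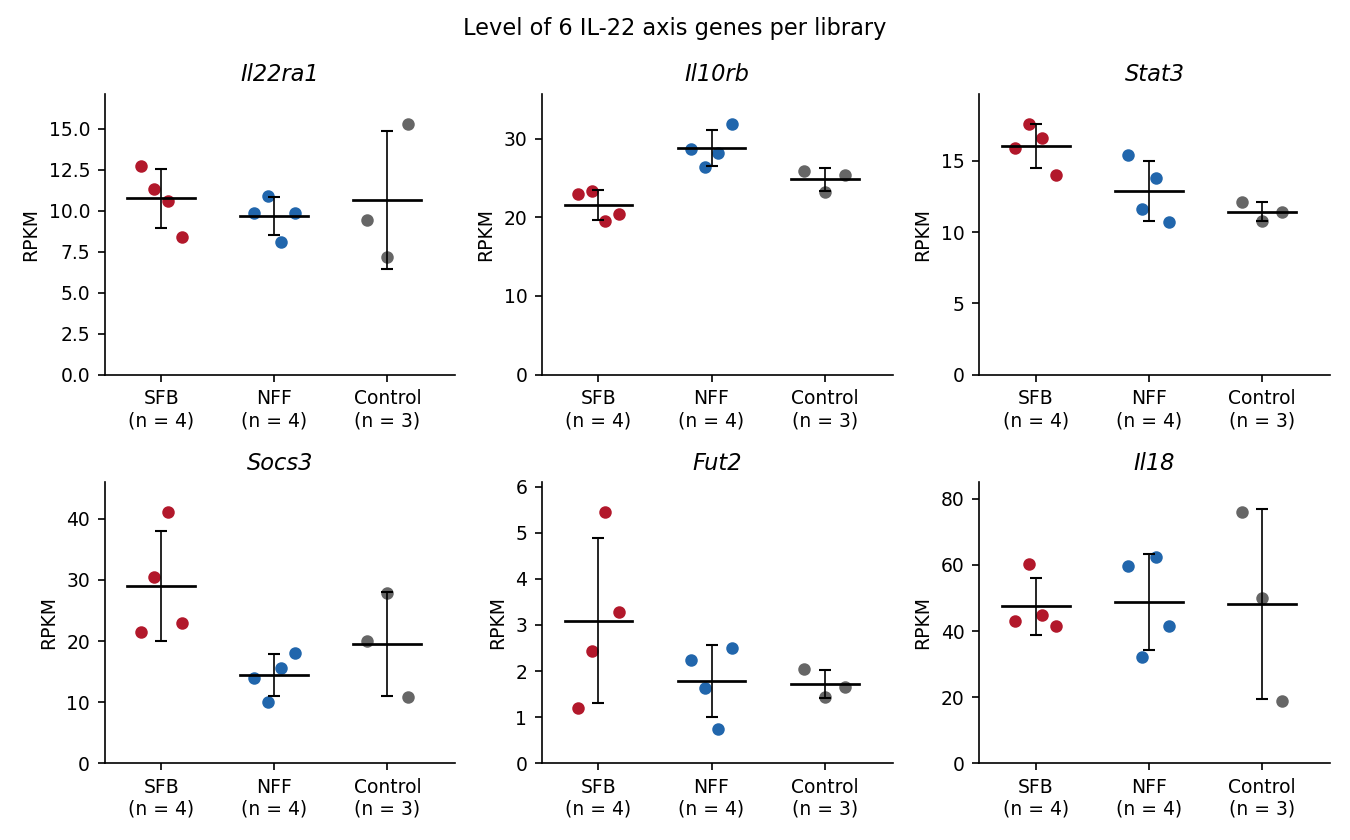
Level of each of the 6 genes in RPKM (y axes, linear, from 0) in the SFB, NFF and Control libraries; points are libraries, and bars are the mean and SD (n = 4, 4 and 3). The 4 SFB libraries lie below all 4 NFF libraries for Il10rb and above all 3 Control libraries for Stat3, and Il18 spans 18.7 to 76.0 RPKM within Control.

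The ligand-specific chain, Il22ra1 (Entrez 230828, chr4:135728172-135752140, plus strand, GRCm38), was present in every library. Il22ra1 stood at 12.7, 11.3, 10.6 and 8.39 RPKM in SFB 1 to 4, at 9.85, 10.9, 8.06 and 9.83 RPKM in NFF 1 to 4, and at 9.44, 7.15 and 15.3 RPKM in Control 2, 4 and 5. The highest and the lowest library were both Control, so the ranges of SFB and NFF lay inside that of Control. Means were 10.8 ± 1.81 RPKM in SFB, 9.67 ± 1.18 in NFF and 10.6 ± 4.22 in Control (SD, n = 4, 4 and 3). SFB minus Control was 0.06 ± 0.21 (SE, 95% interval -0.40 to 0.53, adjusted p = 0.945 by limma). NFF minus Control was -0.07 ± 0.21 (-0.54 to 0.39, adjusted p = 0.953 by limma), and SFB minus NFF was 0.13 ± 0.20 (-0.30 to 0.57, adjusted p = 0.704 by limma). The intervals reach 0.53 for SFB against Control and 0.57 for SFB against NFF and include 0 in both comparisons.

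The shared chain, Il10rb (Entrez 16155, chr16:91406164-91425834, plus strand), was the most even of the 6 across libraries together with Stat3, its highest library at 1.64 times its lowest. Il10rb stood at 22.9, 23.4, 19.5 and 20.4 RPKM in SFB 1 to 4, at 28.7, 26.4, 28.2 and 31.9 RPKM in NFF 1 to 4, and at 25.9, 23.2 and 25.4 RPKM in Control 2, 4 and 5. All 4 SFB libraries lay below all 4 NFF libraries, and Control lay between, touching the SFB range at 23.2 RPKM. Means were 21.5 ± 1.91 RPKM in SFB, 28.8 ± 2.29 in NFF and 24.8 ± 1.45 in Control (SD, n = 4, 4 and 3).

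Il10rb fell in SFB relative to NFF, by 0.40 on the log2 scale (SE 0.10, 95% interval -0.63 to -0.18, adjusted p = 0.037 by limma), lower in 4 of 4 SFB libraries. The exact permutation test gave p = 0.029. The call was close to the threshold, with adjusted p from 0.035 to 0.105 when single libraries were left out, and it was lost without SFB 1, SFB 3, SFB 4, Control 5 or any of the 4 NFF libraries. Against Control the differences were -0.20 ± 0.11 for SFB (-0.44 to 0.04, adjusted p = 0.502 by limma) and 0.20 ± 0.11 for NFF (-0.04 to 0.45, adjusted p = 0.896 by limma). All 4 NFF libraries were above the 3 Control libraries, with an exact permutation p = 0.057. The exons of Il10rb overlap those of Gm21970, an annotated transcript on the same strand that reads through from Ifnar2, so their reads may have been split or shared.

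Within a library, the level of Il22ra1 divided by that of Il10rb was 0.50 ± 0.07 in SFB, 0.34 ± 0.06 in NFF and 0.43 ± 0.16 in Control (SD, n = 4, 4 and 3). SFB 4 and NFF 2 both stood at 0.41. The tests used the log2 ratio with 1 RPKM added to each gene. So taken, it was higher by 0.54 in SFB than in NFF (exact permutation p = 0.029). The exact permutation p was 0.057 when the pseudocount was 0.1 RPKM. Of its 2 genes, Il10rb differed by -0.40 and Il22ra1 by 0.13. For the ratio, SFB minus Control was 0.26 (exact permutation p = 0.343) and NFF minus Control was -0.28 (exact permutation p = 0.371).

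Stat3 (Entrez 20848, chr11:100885098-100939540, minus strand), the transcription factor that the receptor activates, stood at 15.9, 17.6, 16.6 and 14.0 RPKM in SFB 1 to 4. Stat3 stood at 15.4, 11.6, 13.8 and 10.7 RPKM in NFF 1 to 4 and at 12.1, 10.8 and 11.4 RPKM in Control 2, 4 and 5. All 4 SFB libraries exceeded all 3 Control libraries, while NFF spread over both ranges. Means were 16.0 ± 1.51 RPKM in SFB, 12.9 ± 2.13 in NFF and 11.4 ± 0.650 in Control (SD, n = 4, 4 and 3).

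For Stat3, SFB minus Control was 0.45 ± 0.13 (95% interval 0.16 to 0.74) with an unadjusted p of 0.0060, which became an adjusted p = 0.197 over all genes by limma. The exact permutation test gave p = 0.029. SFB minus NFF was 0.30 ± 0.12 (0.03 to 0.57, adjusted p = 0.154 by limma, exact permutation p = 0.057), and NFF minus Control was 0.15 ± 0.13 (-0.14 to 0.44, adjusted p = 0.896 by limma). Stat3 RNA was thus placed higher in 4 of 4 SFB libraries than in Control without passing the adjusted threshold, and the measurement does not report phosphorylated STAT3. The 3' ends of Stat3 and Stat5a overlap on opposite strands and the library kit does not mark strand, so some of these reads could be from Stat5a.

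Socs3 (Entrez 12702, chr11:117966079-117970047, minus strand), the feedback inhibitor whose promoter is printed above, varied 4.11-fold over the 11 libraries. Socs3 stood at 21.4, 30.4, 41.1 and 23.0 RPKM in SFB 1 to 4, at 14.0, 9.99, 15.6 and 18.1 RPKM in NFF 1 to 4, and at 20.0, 27.8 and 10.8 RPKM in Control 2, 4 and 5. SFB lay wholly above NFF, and Control reached from inside the NFF range into that of SFB. Means were 29.0 ± 8.97 RPKM in SFB, 14.5 ± 3.42 in NFF and 19.5 ± 8.53 in Control (SD, n = 4, 4 and 3).

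For Socs3, SFB minus NFF was 0.94 ± 0.28 (95% interval 0.32 to 1.56, adjusted p = 0.066 by limma, exact permutation p = 0.029), the largest difference of the 6 genes in that comparison. Its adjusted p came under the threshold without Control 4 (0.045) or Control 5 (0.040), libraries that enter only through the shared spread. SFB minus Control was 0.59 ± 0.30 (-0.07 to 1.26, adjusted p = 0.471 by limma, exact permutation p = 0.200). NFF minus Control was -0.35 ± 0.30 (-1.01 to 0.32, adjusted p = 0.896 by limma). The differences from Control moved with single libraries: that of SFB was 0.24 without Control 5 and 0.88 without Control 4, and that of NFF was -0.70 without Control 5, -0.05 without Control 4 and -0.19 without NFF 2.

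The ratio of Socs3 to Stat3 within a library sets the inhibitor against the factor that induces it. This ratio was 1.80 ± 0.48 in SFB, 1.15 ± 0.38 in NFF and 1.72 ± 0.81 in Control (SD, n = 4, 4 and 3). On the log2 scale, with 1 RPKM added to each gene, SFB minus NFF was 0.64 (exact permutation p = 0.086). SFB minus Control was 0.15 (exact permutation p = 0.771), but -0.20 without Control 5 and -0.01 without SFB 3. The value for NFF minus Control was -0.49 (exact permutation p = 0.257).

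**Figure D2:**
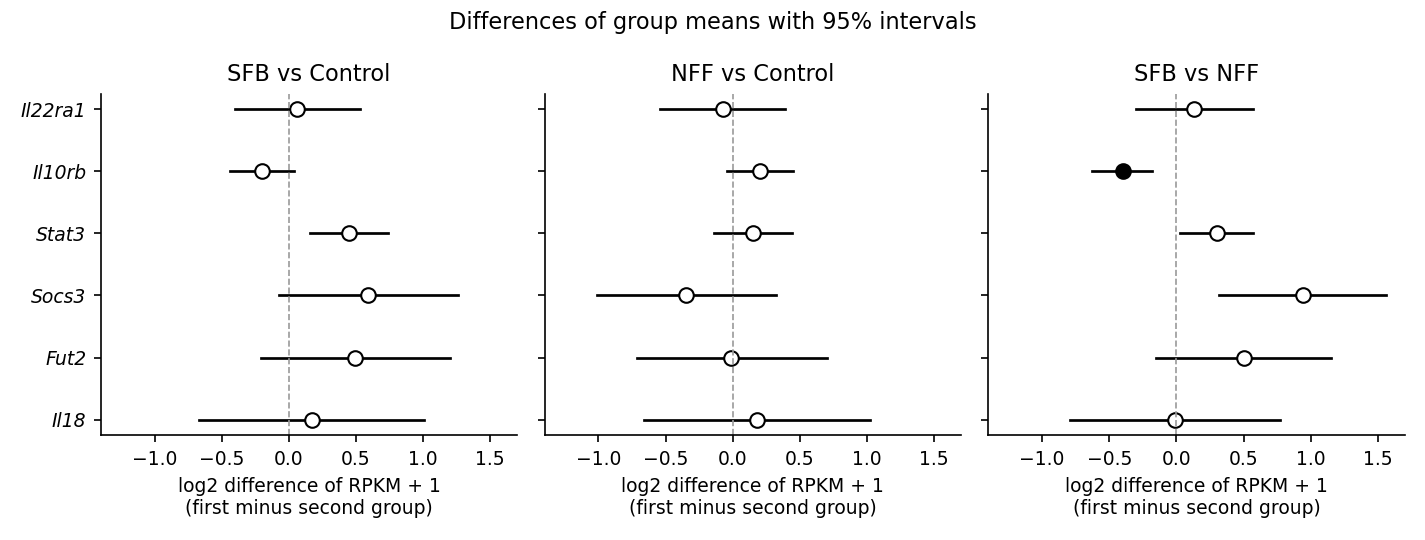
Difference of log2(RPKM + 1) for the 6 genes (x axes) in SFB minus Control, NFF minus Control and SFB minus NFF, with 95% intervals from limma and a dashed line at 0; the filled point passed the adjusted threshold. The interval of Il10rb in SFB minus NFF, -0.63 to -0.18, belongs to the 1 called difference, and the intervals of Il18 are the widest, reaching 1.02.

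Fut2 (Entrez 14344, chr7:45648591-45666394, minus strand), the fucosyltransferase, was the scarcest of the 6, with 74.4% of the genes in the table above it by mean. Fut2 stood at 1.20, 2.44, 5.45 and 3.28 RPKM in SFB 1 to 4, at 2.23, 1.64, 0.747 and 2.51 RPKM in NFF 1 to 4, and at 2.04, 1.44 and 1.66 RPKM in Control 2, 4 and 5. SFB 2, 3 and 4 exceeded every Control library, and SFB 1 lay below them all. Means were 3.09 ± 1.79 RPKM in SFB, 1.78 ± 0.778 in NFF and 1.71 ± 0.302 in Control (SD, n = 4, 4 and 3).

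The 7.29-fold span of Fut2 was the widest of the 6 genes, and most of it lay inside SFB. SFB minus Control was 0.49 ± 0.32 (95% interval -0.21 to 1.20, adjusted p = 0.587 by limma, exact permutation p = 0.286). SFB minus NFF was 0.50 ± 0.30 (-0.15 to 1.15, adjusted p = 0.317 by limma), and NFF minus Control was -0.01 ± 0.32 (-0.71 to 0.70, adjusted p = 0.996 by limma). Without SFB 1 the difference between SFB and Control was 0.76 and that between SFB and NFF was 0.76, and without SFB 3 they were 0.24 and 0.25. Without NFF 3 the difference between SFB and NFF was 0.29. The interval for SFB minus Control with all libraries runs up to 1.20, so a doubling of RPKM + 1 lies inside it and so does no difference.

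Low RPKM values fell on steps of whole reads, from which 45 to 252 reads of Fut2 per library were recovered, so counting alone gave a relative error of 6.3% to 14.9%. These reads rest on a solved gene length of 4335 bases, which equals no annotated transcript length, and the error depends on it. The spread between the 4 SFB libraries, 1.20 to 5.45 RPKM, was wider than these counting errors. Fut2 lies beside its paralogs Sec1 and Fut1, and reads of similar sequence could have been assigned to any of them.

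**Figure D3:**
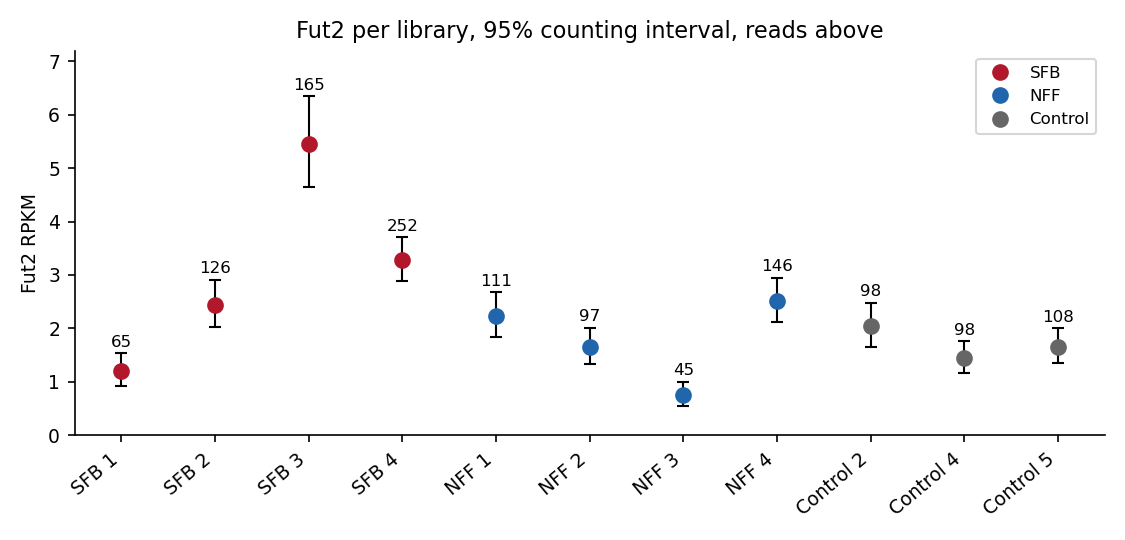
Fut2 level in RPKM (y axis, linear) in each library of SFB, NFF and Control, with 95% Poisson intervals that cover counting error only and the recovered reads written above. SFB 3 at 5.45 RPKM and SFB 1 at 1.20 RPKM are separated by more than their intervals.

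Il18 (Entrez 16173, chr9:50554827-50581840, plus strand) was the most abundant of the 6, with 8.25% of genes above it by mean. Il18 stood at 43.0, 60.3, 44.9 and 41.6 RPKM in SFB 1 to 4, at 59.8, 32.1, 62.3 and 41.4 RPKM in NFF 1 to 4, and at 76.0, 49.9 and 18.7 RPKM in Control 2, 4 and 5. As with Il22ra1, the extremes were both Control libraries. Means were 47.4 ± 8.70 RPKM in SFB, 48.9 ± 14.5 in NFF and 48.2 ± 28.7 in Control (SD, n = 4, 4 and 3).

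For Il18, SFB minus Control was 0.17 ± 0.38 (95% interval -0.67 to 1.01, adjusted p = 0.912 by limma) and NFF minus Control was 0.18 ± 0.38 (-0.66 to 1.02, adjusted p = 0.947 by limma). Without Control 5, the library at 18.7 RPKM, the same differences were -0.39 and -0.38, so their direction rests on that library. SFB minus NFF was -0.01 ± 0.36 (-0.79 to 0.77, adjusted p = 0.990 by limma). Control 5 also held the highest Il22ra1 and the lowest Socs3 of the Control libraries.

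Counted by comparison, SFB against NFF called 1 of the 6 genes, where 7.34% of all genes tested were called (4.20% lower, the direction of Il10rb), and 3 of 6 had an unadjusted p under 0.05, where 25.7% of all genes did. In 2 of the 6 the groups did not overlap, where 20.0% of all genes did not. SFB against Control called 0 of 6 (limma, background 0.200%), with 1 of 6 at an unadjusted p under 0.05 (background 12.1%) and 1 of 6 without overlap (background 9.71%), in each case Stat3. NFF against Control called 0 of 6, as it called 0 of all genes (limma, background 0%), with 0 of 6 at an unadjusted p under 0.05 (background 4.82%) and 1 of 6 without overlap, Il10rb (background 9.77%). The median difference of the 6 was 0.22 in SFB against NFF, 0.31 in SFB against Control and 0.07 in NFF against Control, beside 0.02, 0.01 and -0.01 for all genes. The first pair of comparisons shares the SFB libraries and the last pair the Control libraries, so they are not independent.

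**Figure D4:**
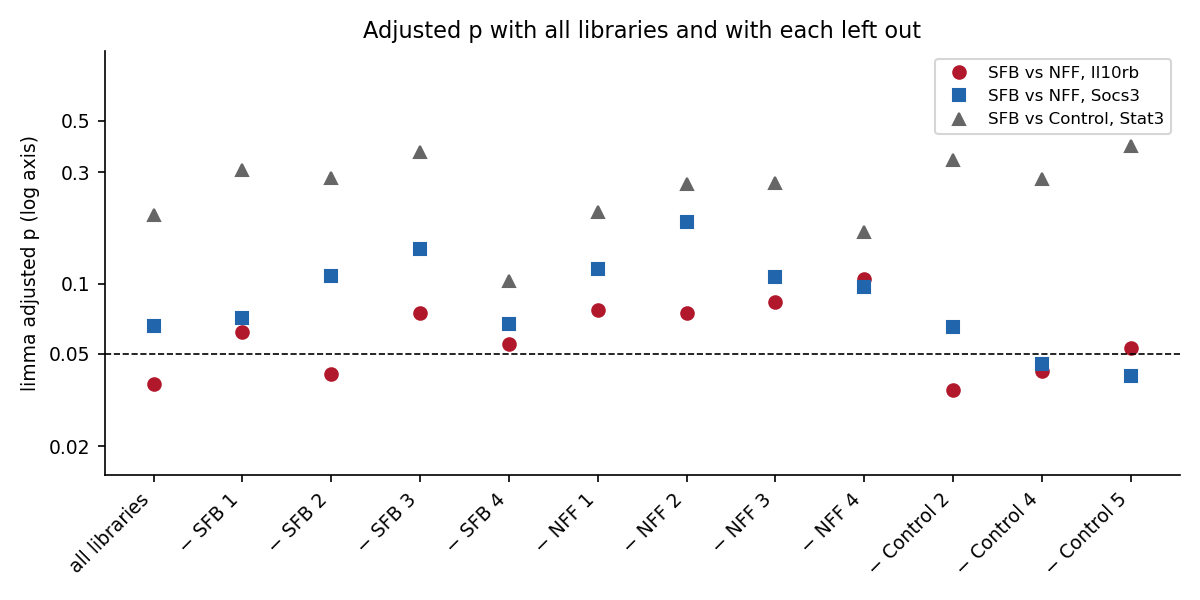
Adjusted p from limma (y axis, log scale) for Il10rb and Socs3 in SFB against NFF and Stat3 in SFB against Control, with all libraries and with each library left out in turn (x axis); the dashed line is 0.05. Il10rb runs from 0.035 to 0.105 on both sides of the line, Socs3 from 0.040 to 0.183, and Stat3 stays above it at 0.103 to 0.388.

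Upstream of the receptor, 2 of 19 listed ligand genes were in the table, Lif and Il33, and neither passed the test in any comparison. Lif, a cytokine that activates STAT3 through gp130, averaged 1.32 ± 0.301 RPKM in SFB, 1.21 ± 0.0839 in NFF and 0.965 ± 0.0935 in Control (SD). Il33, an alarmin of barrier tissue, averaged 3.12 ± 1.97 RPKM in SFB, 1.80 ± 0.683 in NFF and 2.53 ± 2.10 in Control. Among receptor chains of this cytokine class, 12 of 17 were in the table and 10 were tested. In SFB against NFF, 0 rose and 1 fell, Il10rb itself, where 7.34% of all genes were called. The median was -0.09, and 4 had an unadjusted p under 0.05, where 25.7% of all genes did. In SFB against Control none of the 10 passed in limma, 1 had an unadjusted p under 0.05, and the lowest p was that of Il4ra, a chain of the IL-4 and IL-13 receptors, at 0.40 (adjusted p = 0.150). In NFF against Control none passed and 0 had an unadjusted p under 0.05, the lowest being Ifnlr1, the partner of IL-10RB in the type III interferon receptor, at 0.34, and Il17rc, an IL-17 receptor chain, at 0.30.

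Of the STAT inhibitors, 15 of 16 were tested, and in SFB against NFF 1 rose and 2 fell, where 7.34% of all genes were called. Socs1, which inhibits JAK kinases and is best known for restraining interferon signals, averaged 3.51 ± 0.959 RPKM in SFB and 1.08 ± 0.204 in NFF, higher by 1.10 (adjusted p = 0.0030 by limma). Ptpn6, which encodes the phosphatase SHP-1, averaged 8.68 ± 2.50 RPKM in SFB and 27.9 ± 7.09 in NFF, a difference of -1.59 (adjusted p = 0.0044 by limma). Cish, a relative of Socs3 known as a STAT5 target, averaged 0.697 ± 0.129 RPKM in SFB and 1.41 ± 0.108 in NFF, a difference of -0.51 (adjusted p = 0.026 by limma) that lost its call without NFF 2, NFF 3 or NFF 4.

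Against Control, 0 of these 15 inhibitors passed in SFB by limma, and 3 had an unadjusted p under 0.05, where 12.1% of all genes did. Socs1 was at 0.88 (adjusted p = 0.068 by limma) and Ptpn6 at -1.23 (adjusted p = 0.085 by limma). NFF against Control called none and had 0 at an unadjusted p under 0.05, with Socs5, another SOCS family member, at 0.30 and Ptpn6 at 0.35. The median over the list was 0.10 in SFB against NFF, 0.06 in SFB against Control and -0.02 in NFF against Control.

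The listed IL-22 and STAT3 targets held more calls than the receptor, inhibitor, fucosylation or IL-18 list. Larger shares were called in SFB against NFF on 2 lists given below, interferon gamma response genes (19 of 20) and tuft cell markers (8 of 8). All these lists were chosen with earlier results of these data known, so their counts describe them and are no test of enrichment. All 28 of the 36 that were in the table were tested, Socs3, Fut2 and Il18 among them, and in SFB against NFF 12 rose, where 3.14% of all genes did, and 0 fell. Of the 28, 19 were above 0 and 9 below 0, and their median difference was 0.86, beside 0.02 for all genes. The largest were Duoxa2 at 3.45 (adjusted p = 0.0021 by limma), Lrg1 at 3.30 (adjusted p = 0.023), Plet1 at 3.01 (adjusted p = 0.0023) and Duox2 at 2.27 (adjusted p = 0.011). Ccnd1, Tifa, Reg3g, Nfkbiz, Cebpd, Tgm2, Pigr and Hif1a rose by 0.84 to 2.14. Of these, Ccnd1, Nfkbiz and Cebpd kept their calls without any single library, and Reg3g, Tgm2 and Hif1a lost theirs without NFF 2 or NFF 4. Tifa kept its call in 4 and Pigr in 5 of the 11 fits that left out 1 library. The count of called targets ran from 6 to 13 when single libraries were left out, with 6 without NFF 2 and 6 without NFF 4. It was 10 without Control 2, SFB 2 and SFB 4, the libraries farthest from their group means.

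Duox2 and Duoxa2 encode an epithelial oxidase that releases hydrogen peroxide and the factor that matures it. Duox2 averaged 71.4 ± 13.9 RPKM in SFB, 15.9 ± 9.72 in NFF and 30.4 ± 17.3 in Control (SD). Duoxa2 averaged 145 ± 49.3 RPKM in SFB and 13.7 ± 7.72 in NFF. The calls of Duox2, Duoxa2 and Plet1 in SFB against NFF held without any single library. Lrg1, a secreted acute phase glycoprotein, averaged 18.4 ± 15.9 RPKM in SFB, 0.399 ± 0.271 in NFF and 2.38 ± 3.94 in Control, and its call was lost without SFB 3, NFF 2 or NFF 4.

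Plet1, a surface protein of epithelial progenitors, averaged 13.3 ± 6.79 RPKM in SFB, 0.534 ± 0.120 in NFF and 0.931 ± 0.601 in Control, and was the 1 of 28 targets that rose in SFB against Control, by 2.73 (adjusted p = 0.034 by limma), where 0.124% of all genes rose. That call was lost without SFB 2 or SFB 3, without any of the 4 NFF libraries and without any of the 3 Control libraries. The median of the targets was 0.53 in SFB against Control, with 22 above 0 and 6 below 0. There 14 of 28 had an unadjusted p under 0.05 by limma, where 12.1% of all genes did. In NFF against Control the median was -0.30, 0 passed in limma and 5 had an unadjusted p under 0.05, where 4.82% of all genes did. In that last comparison the lowest p-values were those of Cebpd, a transcription factor of acute phase genes, at -0.66 (adjusted p = 0.618) and Duoxa2 at -1.82 (adjusted p = 0.646).

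Around Fut2, 15 of 20 listed fucosylation genes were tested. Gmds, which encodes the first enzyme of GDP-fucose synthesis, averaged 173 ± 14.7 RPKM in SFB and 83.5 ± 9.66 in NFF and rose by 1.05 (adjusted p = 0.0073 by limma), a call that held without any single library. It was the 1 gene of the 15 that passed, none fell, and the median was -0.08. Over all genes tested 7.34% passed, so calls on this list were about as frequent as elsewhere. In SFB against Control none passed in limma and 2 had an unadjusted p under 0.05, Gmds at 0.68 (adjusted p = 0.190) and Tsta3, the next enzyme of the same synthesis, at -0.36 (adjusted p = 0.339). In NFF against Control none passed and 1 had an unadjusted p under 0.05, B4galnt2, a glycosyltransferase of the gut surface, at 0.46 (adjusted p = 0.896), with Gmds at -0.36.

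Around Il18, 21 of 29 listed genes of IL-18 and the inflammasomes were tested. In SFB against NFF 1 rose and 1 fell, with a median of 0.11. Over all genes tested 7.34% were called, so calls on this list were about as frequent as elsewhere. Il18bp, the secreted protein that neutralises IL-18, averaged 9.26 ± 4.16 RPKM in SFB and 1.58 ± 0.238 in NFF and rose by 1.90 (adjusted p = 0.0029 by limma), in every fit that left out 1 library. Naip5, a cytosolic sensor of flagellin in mice, averaged 35.4 ± 10.7 RPKM in SFB and 71.0 ± 6.43 in NFF and fell by 1.03 (adjusted p = 0.017 by limma), a call lost without NFF 2 or NFF 4. Naip5 belongs to a family of near-identical copies whose reads may have been split between them.

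In SFB against Control none of the 21 passed in limma and 2 had an unadjusted p under 0.05, Il18bp at 1.55 (adjusted p = 0.057) and Casp4, the caspase that senses lipopolysaccharide in the cytosol, at 0.45 (adjusted p = 0.395). In NFF against Control none passed and 5 had an unadjusted p under 0.05, where 4.82% of all genes did. The lowest were Naip5 at 0.95 (adjusted p = 0.566 by limma) and its copy Naip6 at 0.67 (adjusted p = 0.785 by limma). The list's median was 0.13 in SFB against Control and 0.12 in NFF against Control.

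**Figure D5:**
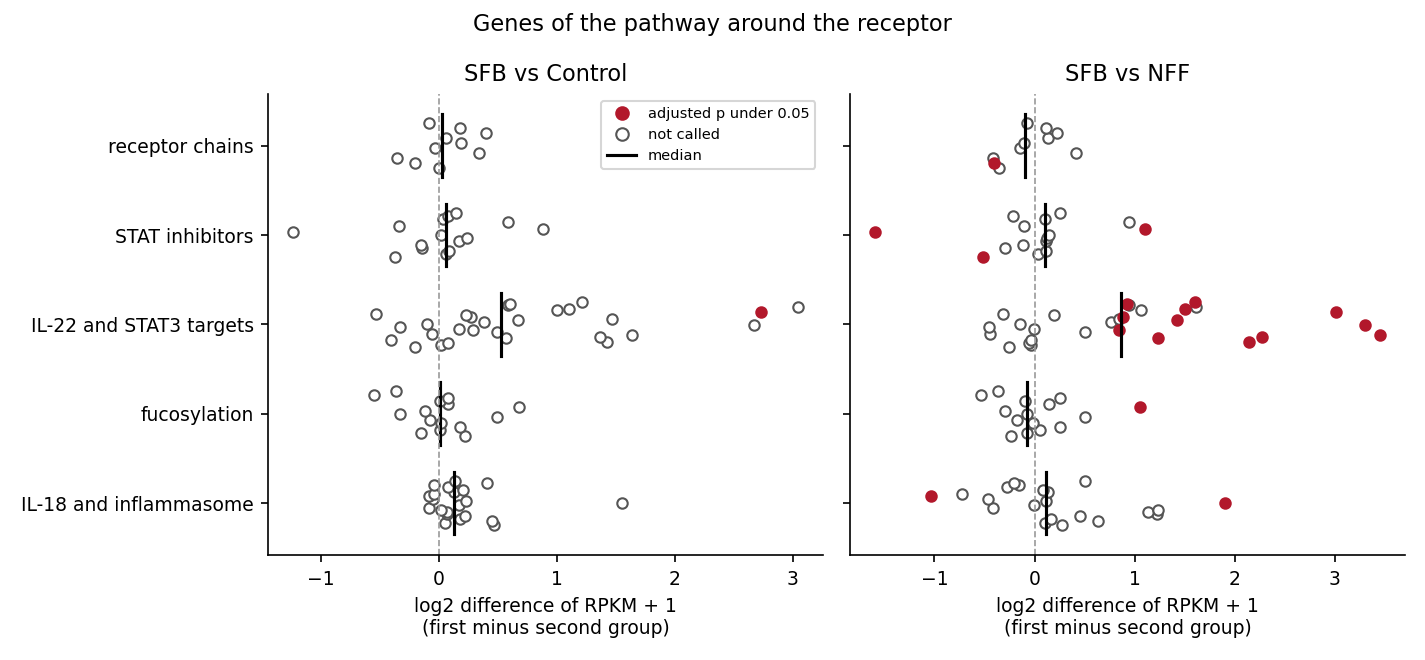
Difference of log2(RPKM + 1) (x axes) of every tested gene of 5 lists around the axis (rows) in SFB minus Control and SFB minus NFF; filled points passed the adjusted threshold, and the vertical bar is the list's median. The listed targets of IL-22 and STAT3 hold 12 of the filled points in SFB minus NFF, with a median of 0.86, and 1 in SFB minus Control, with a median of 0.53. The lists were chosen with earlier results of these data known.

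Some markers of other cell types moved with the groups, and in bulk samples fewer cells of a type and less RNA per cell cannot be told apart. Epcam, the sorted marker, averaged 587 ± 79.8 RPKM in SFB, 618 ± 25.7 in NFF and 545 ± 64.0 in Control, and Ptprc, which encodes CD45, averaged 0.825 ± 0.478 RPKM in SFB, 1.89 ± 0.492 in NFF and 1.25 ± 0.866 in Control. All 10 epithelial markers were in the table, with a mean log2 level of 8.81 to 9.10 in SFB, 9.05 to 9.15 in NFF and 8.93 to 9.15 in Control. In SFB against NFF 1 of them fell, where 4.20% of all genes did: the keratin gene Krt18 (-1.05, adjusted p = 0.028 by limma). Of the 10, 7 were below 0. Of 22 leukocyte markers 4 were in the table, none of them a T cell receptor or CD3 gene, with a summed level of 12.6 to 29.7 RPKM in SFB, 33.1 to 41.6 in NFF and 33.4 to 61.0 in Control. The 1 listed endothelial or stromal marker in the table had a log2 level of 0.34 to 1.60 in SFB, highest in SFB 3. It was 0.45 to 0.79 in NFF and 0.33 to 0.60 in Control. Interferon gamma response genes had a mean log2 level of 3.25 to 3.97 in SFB, 1.63 to 1.98 in NFF and 2.21 to 2.66 in Control. In SFB against NFF 19 of 20 rose, where 3.14% of all genes did. In SFB against Control 9 of 20 rose, where 0.124% of all genes did. Socs1 and Il18bp rose in SFB against NFF alongside these genes, and the part of that response in their values was not tested. The response list was drawn up with none of the listed IL-22 and STAT3 targets in it, and the part of the response in the values of those targets was not tested.

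Tuft cell markers had a mean log2 level of 1.13 to 2.69 in SFB, 3.64 to 4.42 in NFF and 3.06 to 3.87 in Control. All 8 tested fell in SFB against NFF, where 4.20% of all genes did. Paneth cell markers ranged from 4.52 to 9.78 in SFB and 9.72 to 10.54 in NFF and were at least 10.02 in Control. Markers of proliferating cells ranged from 2.59 to 4.59 in SFB, 1.69 to 2.32 in NFF and 1.91 to 3.61 in Control, and distal small-intestinal markers from 5.39 to 7.18 in SFB, 7.21 to 7.29 in NFF and 4.34 to 6.87 in Control. Goblet cell markers ranged from 8.05 to 9.21 in SFB, 8.70 to 10.12 in NFF and 9.15 to 9.64 in Control. In SFB against NFF all 8 were below 0 with a median of -0.82, and none passed in limma. Of them, 4 had an unadjusted p under 0.05, where 25.7% of all genes did. Enteroendocrine markers ranged from 3.11 to 4.30 in SFB, 4.00 to 5.67 in NFF and 4.28 to 6.58 in Control, and villus tip markers from 3.86 to 5.17 in SFB, 5.20 to 5.82 in NFF and 4.48 to 6.55 in Control. Proximal small-intestinal markers ranged from 3.17 to 4.57 in SFB, 4.23 to 4.68 in NFF and 4.08 to 6.14 in Control. Control 2 held the highest proximal (6.14), enteroendocrine (6.58) and villus tip (6.55) levels and the lowest distal level (4.34) of the 11 libraries. Without Control 2, which also held the highest Il18, Il18 differed from Control by 0.60 in SFB and by 0.60 in NFF. The part of these markers in the values of Control 2 was not tested.

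Beside the tuft cell genes, calls among these cell type and position markers in SFB against NFF were few, though some lists moved to 1 side of 0. Over all genes tested, 4.20% were called lower and 3.14% higher. All 16 proliferation markers were above 0, with a median of 1.49. Of these, 15 had an unadjusted p under 0.05 by limma, where 25.7% of all genes did. All 9 Paneth cell markers were below 0, with a median of -2.01 and 1 at an unadjusted p under 0.05 by limma. Their mean log2 level was 4.52 in SFB 2 but 9.72, 9.78 and 8.87 in SFB 1, 3 and 4. Much of the size of these differences thus came from SFB 2. Of 7 enteroendocrine markers tested 2 fell, the granins Chga (-1.87) and Chgb (-2.09), with a list median of -1.46, and of 10 villus tip markers 1 fell, Nt5e (-2.04), with 8 of 10 below 0. Pnliprp2 fell among 9 Paneth cell markers (-2.54), Cubn fell among 9 distal markers (-1.93), and Birc5 (1.58) and Ccnb2 (1.66) rose among 16 proliferation markers. These genes and Krt18 were singled out after their values were seen, and each call was lost in at least 3 of the 11 fits that left out 1 library. The part of these markers in the values of Il10rb, Stat3, Socs3, Ptpn6 and the targets was not tested. Without Control 2, SFB 2 and SFB 4, the difference between SFB and NFF was -0.43 for Il10rb (adjusted p = 0.059 by limma) and 1.02 for Socs3 (adjusted p = 0.113 by limma), and that between SFB and Control was 0.51 for Stat3 (adjusted p = 0.169 by limma).

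The genes whose levels ran most like each member over the 11 libraries were ranked among 7608 genes with a mean of at least 3 RPKM, by Pearson correlation of log2(RPKM + 1), as a description. All points share library scaling, and r is given in turn over all libraries, after each group's mean was subtracted, and without the 2 libraries farthest from the member's median. For Il10rb these were Tle5 (r = 0.96, 0.89 and 0.93, Spearman rho 0.95) and Ptgr1 (0.95, 0.82 and 0.91, rho 0.89). For Stat3 they were Zswim5 (r = 0.96, 0.89 and 0.97, rho 0.96) and Ext1 (0.95, 0.86 and 0.94, rho 0.94). The genes beside Socs3 were Tifa (r = 0.92, 0.83 and 0.87, rho 0.92) and Reg3b (0.92, 0.88 and 0.86, rho 0.88), both on the list of IL-22 and STAT3 targets.

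For Il22ra1 the nearest genes were Ralgps2 (r = 0.85, 0.84 and 0.78, rho 0.83) and Tppp (0.84, 0.84 and 0.78, rho 0.78). Fut2 ran with Blzf1 (r = 0.92, 0.92 and 0.74, rho 0.82) and Ptpn1 (0.87, 0.87 and 0.74, rho 0.73). Il18 ran with Tm4sf20 (r = 0.78, 0.88 and 0.59, rho 0.69) and P4hb (0.76, 0.89 and 0.80, rho 0.86). For Fut2 and Tm4sf20 the likeness weakened most without the 2 farthest libraries, SFB 3 and NFF 3 for Fut2 and Control 5 and Control 2 for Il18.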

How the data were processed

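Epithelial cells from 11 samples were profiled by RNA-seq. Per the labels' protocols, RNA from sorted cells was made into cDNA with SMART-seq v4 (Takara) and into libraries with NexteraXT (Illumina), which mark neither strand nor molecule. Reads were aligned with STAR to mm10, per the submitters' processing notes, and the authors deposited RPKM values per gene, with no counts; the sources used here do not name the counting tool or the gene lengths. Low RPKM values in 135 to 198 genes per library were whole multiples of 1 read within 0.1 read in 87.0% to 91.3% of cases (16.6% to 24.6% after jitter), a check chosen after the data were seen, which gave 7000000 to 17700000 reads per library. Member reads came from the same steps with the gene length solved for, in 5 of 6 members (Il22ra1 191 to 592, Il10rb 777 to 2449, Socs3 347 to 1113, Fut2 45 to 252, Il18 453 to 1392), while Stat3 gave no single length. The solved lengths of Il22ra1 and Socs3 equal that of an annotated transcript, whereas those of Il10rb (5718), Fut2 (4335) and Il18 (1608) equal none; more than 1 length passed for each, the shortest was used, and the reads and counting errors of these 3 depend on it. Intervals from reads cover counting error only, since reads copied by PCR are not independent molecules.

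Values were analysed as log2(RPKM + 1). Genes with at least 1 RPKM in at least 3 libraries were tested (10482 kept, 884 left out), with limma 3.58.1 in R 4.3.3, 1 mean per group, all 11 libraries (8 residual degrees of freedom) and eBayes with a trend. Exact permutation tests ran over the libraries of the groups compared. The fit was tested on simulated data. Alternatives were other pseudocounts, filters, scalings, variance models, array weights, fits of 2 groups alone, a replicate block, leaving out each library and, added after the data were seen, a fit without Control 2, SFB 2 and SFB 4.

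The members and the gene lists were chosen with earlier results of these data known. The rule for named genes took all members, Epcam and Ptprc, up to 4 called genes per list by size of change or else the 2 of lowest unadjusted p, and the 2 genes most like each member. The list of JAK kinases and STATs is not reported here. Coordinates are from GENCODE M21 on GRCm38, and promoters are from RefSeq on GRCm38.p6. Same-numbered libraries of different groups are not said to be paired.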

Additional observations from a re-analysis of the deposited data

How the results depend on the processing

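Called genes in NFF against Control numbered 0 (505 at an unadjusted p under 0.05), but 40 with array weights, whose estimate did not converge, 1 with only these groups, 22 without Control 2, SFB 2 and SFB 4, and 0 to 8 with 1 library left out (8 without SFB 4). In SFB against Control the 21 became 1948, 1, 95 and 7 to 94 under the same settings, and 0 with a replicate block. In SFB against NFF the 769 became 4720 with array weights, 1173 with quantile normalization, 335 with the block and 240 to 994 with 1 library left out. Called targets of IL-22 and STAT3 became 12 with array weights, 0 with only 2 groups, 0 with the block, 0 without the 3 libraries and 0 to 1 with 1 left out in SFB against Control, and 19 with array weights and 6 to 13 with 1 left out in SFB against NFF.

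The call of Il10rb in SFB against NFF was lost with median ratio scaling (-0.42, adjusted p = 0.053), the block (-0.40, adjusted p = 0.118) and without the 3 libraries (-0.43, adjusted p = 0.059), and the difference was -0.44 to -0.36 with 1 library left out. Socs3 in SFB against NFF was called with array weights (0.64) and with only 2 groups (0.94, adjusted p = 0.034) and was 0.76 to 1.06 with 1 left out. Array weights also called Stat3 in SFB against Control (0.45) and Il22ra1 (0.39) and Stat3 (0.24) in SFB against NFF. The ratio of Il22ra1 to Il10rb between SFB and NFF was 0.57 with a pseudocount of 0.1 (exact permutation p = 0.057).

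Directions of uncalled differences of single genes turned in these cases. With array weights they were 0.04 for Socs3 in NFF against Control, -0.05 for Il22ra1 and -0.22 for Fut2 in SFB against Control, and -0.09 for Fut2 in SFB against NFF. With quantile normalization Il18 in SFB against NFF was 0.01. With the block, Il22ra1 was 0.19, Fut2 0.08 and Il18 -0.51 in NFF against Control, and Il18 -0.52 in SFB against Control. Without the 3 libraries Fut2 was 0.08 in NFF against Control. With 1 library left out, NFF against Control ran from -0.14 to 0.20 for Fut2, -0.30 to 0.20 for Il22ra1 and -0.38 to 0.60 for Il18, SFB against Control from -0.16 to 0.34 for Il22ra1 and -0.39 to 0.60 for Il18, and SFB against NFF from -0.19 to 0.12 for Il18. The ratio of Socs3 to Stat3 in SFB against Control ran from -0.20 to 0.47. The cause was not tested.

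Between SFB and NFF, replicate numbers did not pair the libraries: 0 of 8 had their best correlation of deviations with the same number in the other group. Over 8 same-numbered pairs of all groups these correlations were -0.30 to 0.67. Control 4 and SFB 4 gave the 0.67, and Control 2 and SFB 2 gave 0.20. These values do not settle whether the numbers pair Control with SFB. Depth limits Fut2 most, at 45 reads in its lowest library, and for genes that were not called, differences of any size within their intervals remain possible.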
